A study of Homo sapiens with 3 samples.

Results

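Human islets grown from stem cells were compared with and without magnetic enrichment for CD49a, 7 days after the cells had been gathered into new aggregates. Members were cell barcodes from the CD49a-positive and the unsorted single-cell library with at least 1000 detected genes and at most 20% of their UMIs (unique molecular identifiers, each a counted RNA molecule) from mitochondrially encoded genes. These were 4650 of the 6626 barcodes of the series that passed that filter, 2394 positive and 2256 unsorted. The other 1976 came from the CD49a-depleted library, which entered the clustering and is given only for reference.

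Both libraries came from an established line of human embryonic stem cells, HUES8, differentiated into islet-like clusters with a published protocol. Positive cells had been drawn out with an anti-CD49a antibody by magnetic separation, and unsorted cells had not been divided by CD49a, so they held positive and negative cells together. The treatment text of all 3 libraries names the sort, and the unsorted label was taken from the sorting field. All cells were aggregated for 7 days, dispersed with the enzyme TrypLE and sequenced on the 10x Chromium droplet system. The model is thus 1 cell line, with 1 library a side and no replicates, so no test could be made and differences between cultures cannot be told apart from differences due to selection. Intervals of shares and of summed UMIs below are exact 95% intervals, binomial for shares and Poisson for UMIs and their ratios. Intervals of differences in points are approximate 95% intervals by Newcombe's method, built from Wilson limits. All of them cover counting error only.

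CD49a is integrin alpha 1, the product of ITGA1. It pairs with integrin beta 1, encoded by ITGB1, to form a surface receptor for collagens and laminins, and it has been used to pull out beta cells from stem-cell-derived islets. Such islets hold insulin-making beta-like cells beside glucagon-making alpha-like cells and enterochromaffin-like cells, which resemble the gut's own makers of serotonin.

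The positive library held 4512 barcodes and 127119509 UMIs and the unsorted library 2811 barcodes and 114479071 UMIs. Kept positive cells had a median of 48538.5 UMIs and 8293 genes, and kept unsorted cells 42361 UMIs and 7979 genes. The 2 libraries shared 1 kept barcode sequence. Among kept cells, markers of acinar, mesenchymal, endothelial and pluripotent cells were all below 10 CPM (UMIs of a gene scaled to a common library total). The summed level of the 7 mesenchymal markers was 4.07 CPM among positive and 6.58 CPM among unsorted cells, and that of the 5 endothelial markers 0.12 and 0.23 CPM.

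The first question was what kinds of cells each culture held. Beta-like cells were 70.9% of kept positive cells (69.1 to 72.7%; 1698 cells) and 34.3% of kept unsorted cells (32.3 to 36.3%; 774 cells), 36.6 points more (33.9 to 39.2) or a 2.07-fold share. Enterochromaffin-like cells were 6.31% of positive cells (5.37 to 7.36%; 151 cells) and 26.9% of unsorted cells (25.1 to 28.8%; 607 cells), 4.27-fold fewer by share. Alpha-like cells were 9.57% (8.42 to 10.8%; 229 cells) and 18.9% (17.3 to 20.6%; 426 cells), 1.97-fold fewer. The positive culture was thus richer in beta-like cells and poorer in both other large endocrine classes by more than counting error, with differences of -20.6 points (-22.7 to -18.5) for enterochromaffin-like and -9.32 points (-11.3 to -7.32) for alpha-like cells. Proliferating cells, which carried cell division genes such as CENPF and TOP2A, were 1.42% (34 cells) and 2.79% (63 cells). Clusters that met no naming rule held 11.8% of positive and 17.1% of unsorted cells. In the CD49a-depleted library the beta-like, enterochromaffin-like and alpha-like shares were 19.99%, 33.2% and 22.9%.

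**Figure D1:**
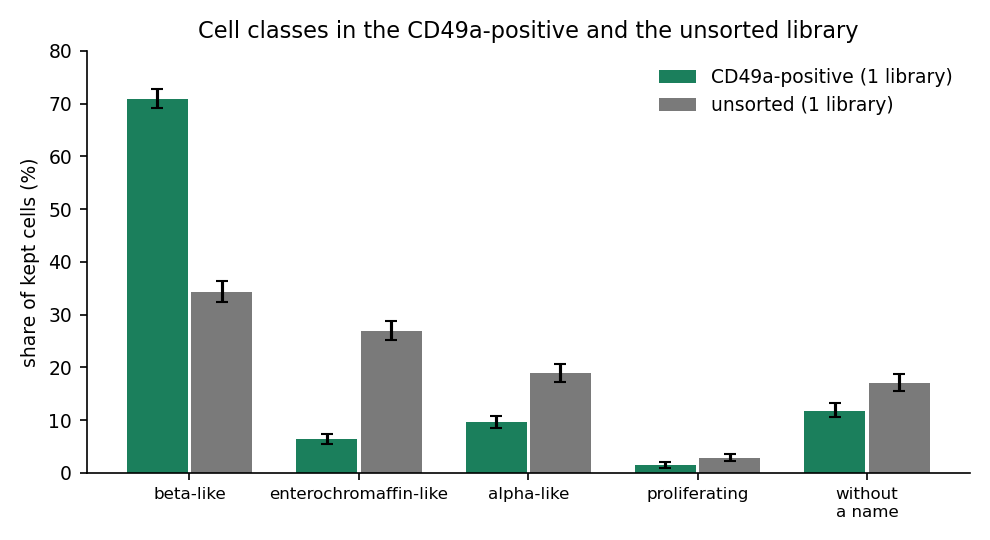
Makeup of both libraries: the vertical axis gives the percent of kept cells that fell into each class or stayed unnamed, with green bars for the positive and grey bars for the unsorted library and exact 95% binomial intervals as lines. Beta-like cells accounted for 70.9% of positive and 34.3% of unsorted cells, and enterochromaffin-like cells 6.31% and 26.9%.

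The size of the beta-like difference depended on how cells were filtered and named. It was 8.57 points with a wider filter (500 genes or more, up to 30% mitochondrial UMIs), under which 24.4% of positive and 15.8% of unsorted cells were named beta-like, and 17.9 points (41.3 and 23.4%) with a stricter one (2000 genes or more, up to 10%). When the 61 genes that differed by at least 1.5-fold between the libraries were left out of the clustering, beta-like shares were 56.0 and 26.6%. A count that uses no cell names went the same way: 57.6% of positive and 31.6% of unsorted cells spent at least 5% of their UMIs on INS, the insulin gene. INS is also 1 of the naming markers, and the cut is not specific to beta-like cells. It was passed by 73.6% of positive and 67.4% of unsorted beta-like cells, and by 27.2 and 14.2% of enterochromaffin-like cells. The median cell gave INS 6.06% of its UMIs in the positive and 1.69% in the unsorted library. All kept cells of both libraries had at least 1 INS UMI, alpha-like cells included, so the presence of a UMI alone did not mark a beta-like cell.

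The beta-like class was made of 5 clusters, and they did not differ equally. Cluster 0, led by CCSER1, APOB, PLAGL1, PCDH7, BACE2, ITGA1 and HADH, held 23.4% of positive and 9.71% of unsorted cells. Cluster 5, led by GNAT3, a G protein subunit of taste signalling, and SLC9A9 held 13.5 and 6.16%, and cluster 6, led by RBP4, INS, the chemokine CXCL12 and IAPP, held 12.9 and 5.63%. Cluster 3 was the exception. With PTH2R, a parathyroid hormone receptor, and SPON1 as leading genes it held 9.82% (8.65 to 11.1%) of positive and 8.55% (7.43 to 9.79%) of unsorted cells, a difference of 1.26 points whose interval (-0.40 to 2.92) included 0. Cluster 3 therefore made up 13.8% of positive and 24.9% of unsorted beta-like cells.

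Cluster 8, also beta-like, was shallow. It held 11.4% of positive and 4.26% of unsorted cells, with a median of 3302.5 and 4642 UMIs. The nuclear RNA MALAT1 stood there at 1453 and 804 CPM, against 14502 and 14461 CPM in cluster 0. Its INS level was 134018 CPM in the positive library and 90919 CPM in the unsorted library, where GCG also reached 15928 CPM against 1195 CPM in the positive library. Ribosomal protein genes were among its leading genes beside IAPP. Leaving cluster 8 out of the libraries gave a beta-like difference of 35.8 points.

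The enterochromaffin-like clusters were lower in the positive library to different degrees. Cluster 2, led by AFF3, STAC, SLIT3, GPC5 and COL5A2, held 2.21% of positive and 12.7% of unsorted cells, 5.75-fold fewer. Cluster 11, in which CGA, CARTPT and TAC1, genes of secreted peptides, led, held 0.501% (12 cells) and 4.03% (91 cells), 8.05-fold fewer. Cluster 4 combined FEV, CBLN1 and NPW with INS at 51969 CPM in positive and 52310.1 CPM in unsorted cells. That INS level was above the 40606 and 43955 CPM of beta-like cluster 3. Its GCG stood at 10070 and 16964 CPM and its SST at 6372 and 9510 CPM, so the cluster held several hormones. Cluster 4 held 3.26 and 8.73% of cells, 2.68-fold fewer. As a result cluster 4 made up 51.7% of the positive enterochromaffin-like class, whereas cluster 2 made up 47.3% of the unsorted one. The alpha-like class shifted in the same manner. Its GCG-led cluster 1 held 4.39 and 10.8% of cells, and cluster 7, led by the netrin receptor DCC and the glutamate receptor subunit GRIN3A, 5.18 and 8.11%. Cluster 7 was 54.1% of positive alpha-like cells, and cluster 1 was 57.0% of unsorted ones.

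Among clusters without a name, cluster 9, with the corticotropin-releasing hormone gene CRH and the somatostatin gene SST among its leading genes, held 1.25% of positive and 4.30% of unsorted cells, 3.43-fold fewer. Cluster 10, in which PTH2R and DPP4 led, held 4.30 and 3.86%. Cluster 13, led by the ghrelin gene GHRL and SST, held 2.05 and 2.62%. For clusters 10, 13, 14 and 16 the interval of the difference included 0.

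The next question was whether the gene behind the sort still differed after 7 days in culture. ITGA1 (GRCh38 chr5:52787896-52959210, plus strand) gave 13272 UMIs in kept positive cells and 7292 in kept unsorted cells. Its level was 108 CPM (107 to 110.3) in the positive and 66.2 CPM (64.7 to 67.8) in the unsorted library, 1.64-fold higher (1.59 to 1.69). The log2 ratio of positive over unsorted, computed here and below with 10 CPM added to both levels, was 0.64. The design favoured a higher level in the positive library without fixing it, since RNA was measured 7 days after selection on the protein.

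Within named classes the ITGA1 ratio was uneven. In beta-like cells ITGA1 stood at 129 CPM among positive and 115 CPM among unsorted cells, 1.12-fold (1.08 to 1.16). In enterochromaffin-like cells it stood at 61.5 and 36.3 CPM, 1.69-fold (1.52 to 1.88), and in alpha-like cells at 22.1 and 16.2 CPM. The enterochromaffin-like log2 ratio was 0.63, and 0.56, just under 1.5-fold, with unsorted cells weighted to the positive cluster shares within the class. The level in unsorted beta-like cells exceeded that in positive enterochromaffin-like cells. ITGA1 was itself among the leading genes of the largest beta-like cluster, so a higher level in that class may be partly built in. These levels therefore cannot weigh class against library. At a fixed depth of 10000 UMIs per cell, 64.0% (61.4 to 66.5%) of positive and 59.97% (56.2 to 63.7%) of unsorted beta-like cells had an ITGA1 UMI. The shares were 33.6% (25.97 to 41.8%) and 23.3% (19.9 to 26.9%) in enterochromaffin-like cells and 13.5% (9.26 to 18.6%) and 11.7% (8.80 to 15.2%) in alpha-like cells, which serve as the lowest class. Over all cells 53.0 and 34.6% had one, with 330 positive and 180 unsorted cells left out as shallower than that depth. Without thinning, the beta-like shares were 79.7 and 82.7%, in the opposite order, so no order within the beta-like class is read from these shares.

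Of the other integrin subunits, ITGB1, the partner of ITGA1, stood at 349 CPM among positive and 382 CPM among unsorted cells (log2 -0.13) and at 319.7 and 315 CPM within beta-like cells. ITGAV, the vitronectin receptor subunit, stood at 59.8 and 54.6 CPM, and ITGB5 at 29.4 and 24.5 CPM. Among 7 measured subunits of 13, measured meaning 10 CPM or more in either library, ITGA1 was the one past 1.5-fold. The median of the 7 was 0.09, beside 0.01 over all 4078 genes eligible.

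Over all kept cells, few genes differed by 1.5-fold or more, and most of those were lower in the positive library. Of 4078 genes with at least 50 CPM and 50 UMIs in the higher library, 18 (0.441%) reached 1.5-fold in favour of the positive library and 43 (1.05%) in favour of the unsorted one. With median-of-ratios size factors the split was 27 higher and 39 lower. At 2-fold, the counts were 0 and 13 (0.319%). Of all eligible genes 53.9% had ratios above 0. These are counts by size, not by significance. In a sum over all cells, a different makeup of cell types and a different level within a type both enter the ratio, and the sums within classes follow further on.

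The genes higher in the positive library were led by PLAGL1, BACE2, ZNF804A and PCDH7. PLAGL1 (chr6:143940300-144064599), an imprinted zinc finger transcription factor linked to neonatal diabetes, stood at 220.9 CPM among positive and 109 CPM among unsorted cells, 2.02-fold (1.98 to 2.06), log2 0.95. BACE2 (chr21:41167801-41282518), a membrane protease of beta cells, stood at 131 and 65.7 CPM (log2 0.90), and the protocadherin PCDH7 (chr4:30720415-31146805) at 793 and 458 CPM (log2 0.78). HADH, an enzyme of fatty acid oxidation that restrains insulin release, stood at 162 and 98.6 CPM. ACVR1C, a receptor of the activin family, stood at 816 and 528 CPM. PLAGL1, BACE2, PCDH7 and HADH were among the leading genes of beta-like clusters, and ACVR1C is 1 of the beta cell markers. The endosomal sodium-proton exchanger SLC9A9 stood at 66.2 and 36.1 CPM, HS6ST2, a sulfotransferase of heparan sulfate chains, at 79.4 and 46.9 CPM, and CCSER1 at 5314 and 3424 CPM. The zinc finger gene ZNF804A, the hydroxylase gene ASPH and the cadherin CDH18 completed the 12 highest, with log2 ratios of 0.79, 0.63 and 0.61.

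Among the 12 lowest genes were 4 enterochromaffin markers (COL5A2, FEV, TPH1 and CBLN1) and the glucagon gene. COL5A2 (chr2:189031896-189225312), a fibrillar collagen chain, stood at 50.4 CPM among positive and 185 CPM among unsorted cells, 3.68-fold lower (log2 -1.69). FEV (chr2:218981087-218985657), an ETS factor that drives the serotonin programme, had levels of 77.97 and 245 CPM, 3.14-fold lower. TPH1 (chr11:18017564-18042426), which catalyses the first step from tryptophan to serotonin in peripheral tissues, was at 53.3 and 164 CPM, 3.08-fold lower. GCG (chr2:162142873-162152404), the glucagon gene, stood at 9275 and 20093 CPM, 2.17-fold lower. These 4 genes were low in the positive library in company with GPC5, a cell-surface proteoglycan, at 15.2 and 65.1 CPM and the synaptic organiser CBLN1 at 22.5 and 61.2 CPM. AFF3, STAC, SLIT3, RNF220, CNTNAP5 and VIM, the intermediate filament vimentin, made up the rest of the 12 lowest, with log2 ratios from -1.56 to -1.01.

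**Figure D2:**
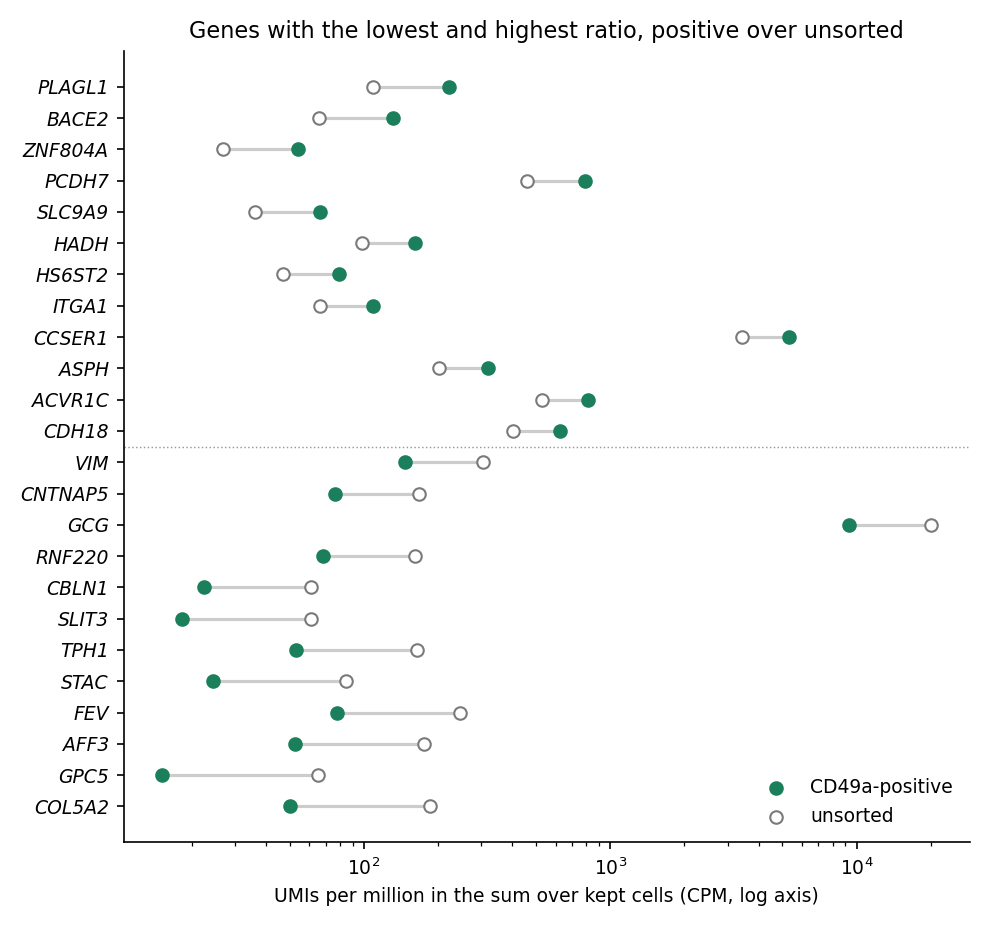
CPM on a log axis (horizontal) of the 12 highest and 12 lowest genes by ratio over all kept cells, with a filled point for the positive and an open point for the unsorted library. PLAGL1 stood at 220.9 CPM among positive and 109 CPM among unsorted cells, and COL5A2 at 50.4 and 185 CPM.

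Hormone and marker lists gave the same picture, and they overlap with the markers that named the classes, so they are no independent evidence of makeup. INS (chr11:2159779-2161341) stood at 68136 CPM among positive and 51360.2 CPM among unsorted cells (log2 0.41), and IAPP, the amylin gene, at 1725 and 1269.7 CPM (0.44); neither reached 1.5-fold. Of 11 measured beta cell markers, HADH and ACVR1C were at least 1.5-fold higher and 0 lower, 10 had ratios above 0, and the median was 0.44. PDX1, a beta cell transcription factor, stood at 79.8 and 54.8 CPM (0.47). MAFA, a factor of mature beta cells, stood at 0.646 and 0.663 CPM, near 0 in both. Of 8 measured enterochromaffin markers all were below 0 and 5 at least 1.5-fold lower (COL5A2, FEV, TPH1, CBLN1 and the vesicular monoamine transporter SLC18A1 at 10.1 and 32.5 CPM). Their summed level was 481 CPM among positive and 1050.3 CPM among unsorted cells. GCG was also past 1.5-fold among 9 measured alpha cell markers, whose median was -0.52. SST, the delta cell hormone, stood at 3115 and 5455 CPM (log2 -0.81).

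Other lists were also read against the shares over all genes. Among 16 measured islet transcription factors 0 were at least 1.5-fold higher, FEV was among those lower, and the median was 0.10. NKX6-1, which beta-like and enterochromaffin-like cells share, stood at 103 and 87.1 CPM, and NKX2-2, which endocrine cells share, at 100.1 and 99.4 CPM. Of 15 genes of prohormone processing and granules and of 11 genes of exocytosis, 0 were past 1.5-fold in either direction, and both medians lay within 0.1 of 0. With 0.441% of all eligible genes higher and 1.05% lower, a count of 0 is near the background and says nothing particular about these lists. In the glucose sensing list HADH alone of 12 passed 1.5-fold. Cadherins included PCDH7 and CDH18 among the higher genes, and axon guidance genes were split. There ROBO2, a SLIT receptor, at 725 and 471 CPM and PLXNA2, a semaphorin receptor, at 474 and 308 CPM were higher, while SLIT3, a ligand of ROBO receptors, at 18.3 and 60.8 CPM was lower.

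In other lists each member was below 1.5-fold, and the signs are set beside the 53.9% of all eligible genes with ratios above 0. Of 19 nuclear-encoded respiratory chain genes, 18 had ratios below 0, with a median of -0.22, the lowest being ATP5ME, an ATP synthase subunit, at 155 CPM among positive and 217 CPM among unsorted cells. For the 13 genes encoded in mitochondria the median was 0.03, and -0.05 with each cell weighted equally. Of 17 unfolded protein response genes, 14 had ratios above 0, with a median of 0.18, and HSPA5, the main chaperone of the endoplasmic reticulum, stood at 543 and 432 CPM. Ribosomal protein genes had a median of 0.09 with 15 of 18 above 0. Of 6 measured interferon and antigen presentation genes, 5 were below 0, among them IFI6, an interferon-induced gene, at 187 and 247 CPM.

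The next question was how much of the difference over all cells was shared by cells of 1 class. Within beta-like cells the libraries were close. Of 3905 eligible genes, 0 reached 1.5-fold upward in the positive library and 4 (0.102%) downward. The 4 were COL5A2 at 26.4 and 59.2 CPM, TPH1 at 28.0 and 60.2 CPM, FEV at 46.5 and 85.2 CPM, and GCG at 2189 and 3647 CPM. All 4 are markers of other classes, and their levels in unsorted beta-like cells were well under those of unsorted enterochromaffin-like cells (COL5A2 571 CPM) or alpha-like cells (GCG 75617 CPM). Whether RNA from neighbouring cells, doublets or mixed cells contributed was not tested. When clusters were drawn without the 61 genes, 2 of the 4, FEV and GCG, were past 1.5-fold, and the same 2 were so with unsorted cells weighted to the positive cluster shares within the class.

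Beta cell markers differed little within beta-like cells. INS stood at 81543 CPM among positive and 88389.7 CPM among unsorted cells (log2 -0.12), and IAPP at 1835 and 2046 CPM (-0.16). The median beta-like cell gave INS 7.88% of its UMIs in the positive and 7.66% in the unsorted library. None of 10 measured beta markers was past 1.5-fold, and their median was 0.10. These markers also named the class, so close levels within it are partly built in. Among eligible genes, those with at least 50 CPM, the highest ratios, all under 1.5-fold, belonged to ZNF804A at 61.1 and 41.5 CPM and PLAGL1 at 271 and 195 CPM, both 0.46, followed by EYS, FOS and ASPH. FOS, an early response transcription factor, stood at 167 and 126 CPM, and 10 of 11 measured immediate early genes were above 0 with a median of 0.25, where 60.1% of all eligible genes were above 0. Over all kept cells the same list went the other way, with 4 of 12 above 0 and a median of -0.04. Of the 18 genes higher over all cells, 17 had the same sign in beta-like cells, with a median ratio of 0.17 there against 0.63 over all cells. Those 18 were chosen on sums that hold these same beta-like cells. The agreement in sign is thus partly built in, and the 60.1% of all eligible genes above 0 is no fair baseline for it.

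**Figure D3:**
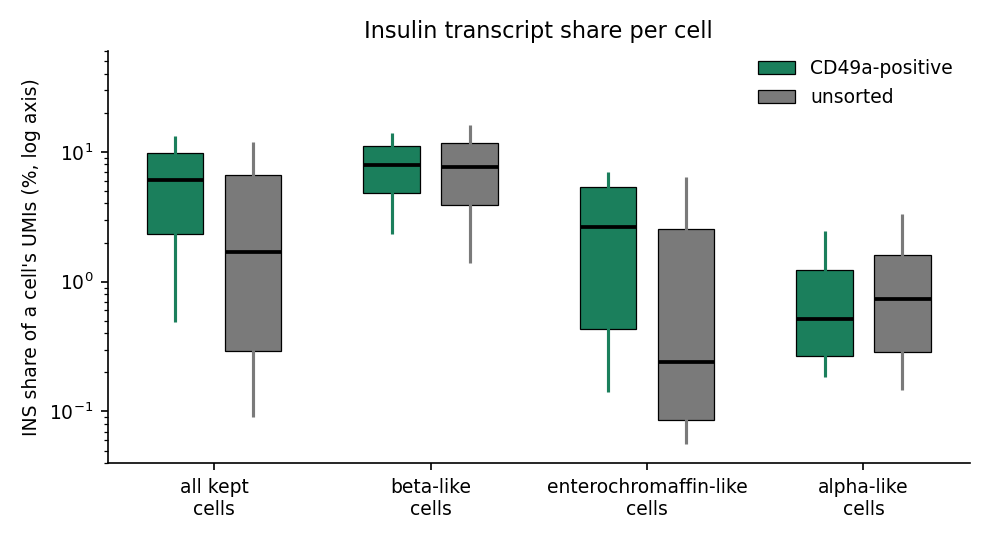
INS UMIs as a percent of each cell's UMIs (vertical log axis) by class, green for positive and grey for unsorted cells, with boxes over the middle quartiles, a black line at the median and thin lines from the 10th to the 90th percentile. Beta-like medians were 7.88 and 7.66%, whereas over all kept cells they were 6.06 and 1.69%.

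More genes passed 1.5-fold in enterochromaffin-like cells than in either of the other classes, a difference in counts that was not tested. The sums here held 8635749 positive and 29135444 unsorted UMIs. Of 4220 eligible genes, 22 (0.521%) passed 1.5-fold toward the positive library and 39 (0.924%) toward the unsorted one, over 151 positive and 607 unsorted cells. At 2-fold these were 2 (0.0474%) and 5 (0.118%). Higher were BACE2 at 69.6 CPM among positive and 28.1 CPM among unsorted cells (log2 1.06), PCDH7 at 296 and 149 CPM (0.94), PLAGL1 at 106 and 52.3 CPM (0.90), ASPH, and SEMA3C, a secreted semaphorin, at 73.8 and 39.2 CPM (0.77). Of BACE2 UMIs, 39.8% in the positive and 24.9% in the unsorted library came from 10 cells. All 11 measured beta cell markers had ratios above 0, where 47.2% of all eligible genes did, and ACVR1C, HADH and ERO1B, an oxidase of the endoplasmic reticulum, were past 1.5-fold. Of the 18 genes higher over all cells, 14 were eligible in this class and 11 of them past 1.5-fold. The sums that chose them hold these same cells, so this overlap is no independent evidence.

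Lower in positive enterochromaffin-like cells were GPC5 at 36.4 and 183 CPM (log2 -2.06), the cadherin CDH12 at 79.1 and 200.1 CPM (-1.24) and AFF3 at 220.2 and 495 CPM (-1.13). So were the peptide genes CGA, the shared alpha subunit of pituitary hormones, at 19.6 and 61.03 CPM (-1.26) and CARTPT, a neuropeptide precursor, at 47.5 and 119.7 CPM (-1.17). Serotonin genes were closer: TPH1 stood at 362 and 455 CPM (-0.32), and none of 8 measured genes of serotonin synthesis and storage was past 1.5-fold. All 8 were below 0, as were all 9 measured enterochromaffin markers, with a marker median of -0.48. Of all eligible genes 47.2% were above 0. FEV was the 1 marker of those 9 past 1.5-fold, at 395 and 620 CPM (-0.64). INS stood at 41729.8 and 31564 CPM (0.40), and the median cell gave it 2.63% of its UMIs in the positive and 0.239% in the unsorted library. By number of cells, cluster 4 was the largest part of the positive class and cluster 2 of the unsorted class. By UMIs, cluster 4 was the largest part of both, with 5950353 positive and 15137045 unsorted UMIs, so it weighed most in the class ratios. Because the cluster shares differed, a count was also made with unsorted cells weighted to the positive cluster shares. It gave 10 genes higher, 8 of them among the 22, and 7 lower, 6 of them among the 39. BACE2, PCDH7, PLAGL1, SEMA3C, GPC5, CDH12, AFF3 and CARTPT were still past 1.5-fold there. ASPH, ACVR1C, HADH, ERO1B and FEV were not, at log2 ratios of 0.49, 0.48, 0.53, 0.43 and -0.47. CGA, at -0.93, was under 50 CPM in both. GCG, at -0.82, was past 1.5-fold with this weighting and not without it. Leaving cluster 4 out gave 40 and 30. Not every gene past 1.5-fold in the class was so in each of its clusters. PCDH7 stood at 397 and 222 CPM in cluster 4 but at 71.5 and 69.3 CPM in cluster 2. BACE2 was higher in both, at 90.4 and 45.5 CPM and at 21.2 and 12.2 CPM. GPC5 stood at 35.5 and 383 CPM in cluster 2 but at 331 and 321 CPM in cluster 11, where CARTPT stood at 428 and 437 CPM.

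Alpha-like cells were again close, with cluster 7 the larger part in the positive and cluster 1 in the unsorted library. Of 3990 eligible genes, 7 (0.175%) were past 1.5-fold on the positive side and 2 (0.0501%) on the unsorted side, and 1 (0.0251%) on each side was past 2-fold. GCG stood at 70403 CPM among positive and 75617 CPM among unsorted cells (log2 -0.10). CCSER1 stood at 167 and 70.7 CPM (1.13), with 45.0 and 34.5% of its UMIs in 10 cells, and UNC5C, a netrin receptor, at 467 and 303 CPM (0.61). CCDC85A, the splicing factor RBFOX1, MACC1, the synaptic scaffold HOMER1 and TMEM132D were the other higher genes, at log2 ratios from 0.60 to 0.88. SST stood at 1355 and 2735 CPM (-1.01), with 69.7 and 72.5% of its UMIs in 10 cells, and IFI6 at 132 and 206 CPM (-0.60). With unsorted cells weighted to the positive cluster shares within the class, CCSER1, CCDC85A and MACC1 were higher and SST lower by 1.5-fold. UNC5C, RBFOX1, HOMER1 and TMEM132D, at log2 ratios from 0.50 to 0.53, and IFI6, at -0.51, were not. INS in alpha-like cells was lower in the positive library, at 11004 and 14929 CPM (-0.44), although the positive library as a whole held more INS.

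A last comparison gave the unsorted library the cluster makeup of the positive one, by weighting the mean of each unsorted cluster by the positive cluster shares. Of 3975 eligible genes, none then passed 1.5-fold on the positive side and 1 (0.0252%) did so on the unsorted side. That gene was FEV, at 77.97 CPM among positive and 122 CPM among reweighted unsorted cells (log2 -0.59). ITGA1 stood at 108 and 96.7 CPM (0.15), PLAGL1 at 220.9 and 164 CPM (0.41), COL5A2 at 50.4 and 70.8 CPM (-0.42) and GCG at 9275 and 11570.1 CPM (-0.32). All 18 genes that were higher without weighting were eligible, and all 18 had ratios above 0, as had 66.3% of all eligible genes, but their median went from 0.63 to 0.19. Of the 43 lower genes 33 were eligible and 29 of these kept ratios below 0, with a median that went from -0.76 to -0.16. Both lists were chosen on the same positive sums, so the kept signs are partly built in. The clusters were drawn from these same genes, so a cell whose state shifted enough to join another cluster counts here as makeup. Clustering without the 61 genes again left 0 higher and 1 lower. The other variable genes still drew those clusters, so this count does not lift that limit.

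**Figure D4:**
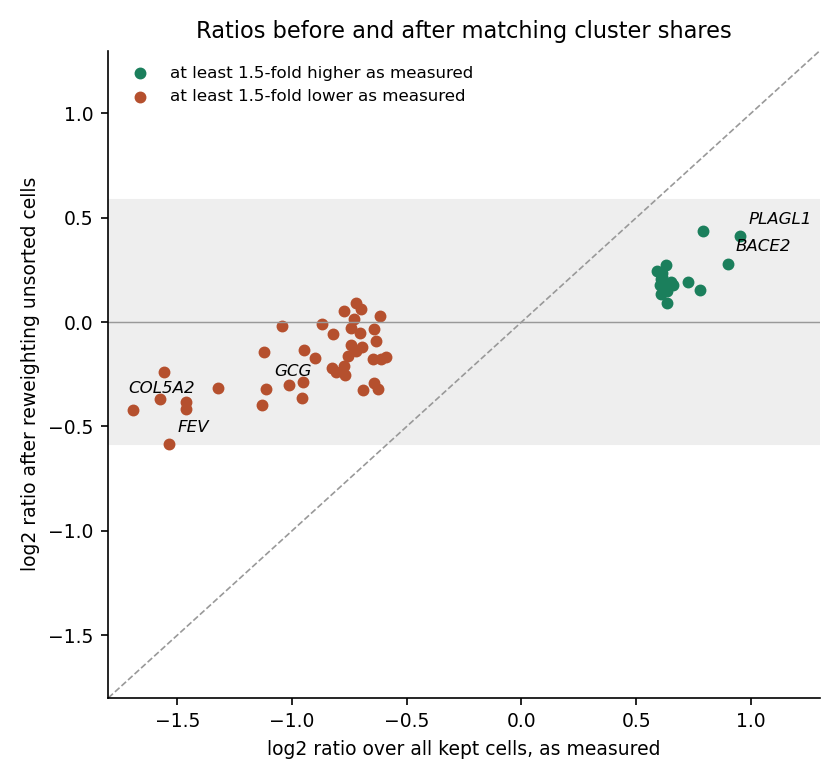
Log2 ratio of positive over unsorted for 58 named genes past 1.5-fold over all kept cells (horizontal axis) against the same ratio with unsorted cells reweighted to the positive cluster makeup (vertical axis), where the grey band covers ratios under 1.5-fold and the dashed line marks equal ratios. The 17 higher genes all stayed above 0 and 36 of the 41 lower genes below 0, within -0.59 to 0.44. Positive sums were the same on both axes.

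Within that reweighted comparison, respiratory chain genes still had 18 of 19 ratios below 0, with a median of -0.17 beside 0.04 over all eligible genes, of which 66.3% were above 0. Within classes their medians were -0.10 in beta-like, -0.11 in enterochromaffin-like and -0.23 in alpha-like cells. The unfolded protein response list had a reweighted median of -0.01 (0.01 with each cell weighted equally), and 0.04, 0.26 and -0.06 in the 3 classes in that order. IFI6 was lower in the positive library in all of these, at log2 -0.45 in beta-like, -0.46 in enterochromaffin-like and -0.60 in alpha-like cells and -0.49 after reweighting. The metallothionein gene MT1X, which binds metal ions, stood at 40.2 and 13.2 CPM in beta-like cells but 8.16 and 38.9 CPM in alpha-like cells. In the positive beta-like cells 63.5% of MT1X UMIs came from 10 cells, and in the unsorted alpha-like cells 83.8%, so both ratios rested on few cells.

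The libraries also differed in what the filter removed. It removed 46.9% of positive barcodes (45.5 to 48.4%; 2118) and 19.7% of unsorted barcodes (18.3 to 21.3%; 555), a difference of 27.2 points (25.1 to 29.2). Most of the gap lay in barcodes that fell under the gene minimum alone, 28.5% of positive and 5.34% of unsorted barcodes. Those over the mitochondrial limit alone were 2.88 and 6.65%, and those failing both limits 15.5 and 7.76%. Removed barcodes held 3.73% of positive and 3.82% of unsorted UMIs.

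Removed positive barcodes were rich in insulin RNA. Of their UMIs that were not mitochondrial, INS took 64631 CPM among positive and 28068 CPM among unsorted cells, against 74420 and 55870 CPM among kept cells on the same base. In barcodes under the gene minimum alone INS stood at 89568 CPM among positive and 55645 CPM among unsorted cells, while MALAT1 was at 5021 and 3991 CPM against 15139 and 16175 CPM in kept cells. At the gene limit, 74 positive barcodes with 900 to under 1000 genes and an allowed mitochondrial share had INS at 99987 CPM, and 51 with 1000 to under 1100 genes had it at 91699 CPM. In the unsorted library these bands held 16 and 8 barcodes, at 38475 and 17833 CPM. At the mitochondrial limit, 22 positive barcodes between 18 and 20% had INS at 56204 CPM and 27 between 20 and 22% at 54566 CPM. The same bands held 48 and 35 unsorted barcodes, at 36124 and 20637 CPM. The share of barcodes that passed thus differed between the libraries along with INS content, and the part this played in the shares of kept cells was not tested beyond the wider and stricter filters given above.

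**Figure D5:**
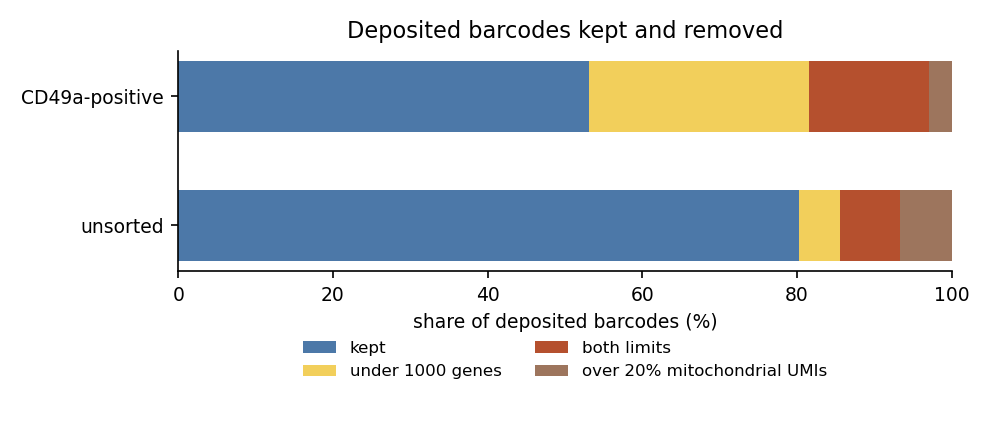
Percent of each library's barcodes (horizontal axis) that were kept, under the gene minimum, past both limits or over the mitochondrial limit, stacked in 1 bar per library. Barcodes under the gene minimum alone were 28.5% of the positive and 5.34% of the unsorted library.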

How the data were processed

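The deposited matrices hold UMI counts, whole numbers for each gene in each barcode, made by the authors with Cell Ranger 7.1.0 on GRCh38, per the submitters' processing notes. The annotation release and the intron setting are not given in the sources used here. The filter kept barcodes of 1000 or more genes whose mitochondrial share did not exceed 20%. Kept cells of all 3 libraries were clustered together with scanpy 1.11.5 (10000 UMIs per cell, log scale, 2000 variable genes, 30 components, 20 neighbours, Leiden resolution 1). A cluster was named where at least 3 markers of a class were 1.5-fold above the other cells, with a lead of 0.5 in mean log2 over the next such class and its 10 leading genes did not hold as many markers of some other class. Clusters whose depth was under the library's median by a factor of 3 needed a marker among those genes. Proliferating cells needed 5 of 8 markers. These naming criteria were chosen once the clusters were known. Scrublet marked 8 of 6626 cells (0.121%) and so did not work. No cell was removed, and doublets remain.

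UMIs were summed per library and class, scaled to CPM, and compared as log2 ratios with 10 CPM added. Eligible genes had 50 CPM and 50 UMIs or more in whichever library was higher, and were counted at 1.5-fold, a rule of size. List members were used at 10 CPM or more in either library. In the reweighting, clusters under 10 cells in either library were pooled. Named are ITGA1, the 12 highest and 12 lowest genes over all cells, the 5 highest and lowest in each class and in the reweighted comparison, and list members past 1.5-fold or at the ends of a list. Genes in other roles, such as NKX2-2, leading genes of clusters, and values beside ITGA1 were named after their values were seen. Some genes that meet this rule are not reported here. Members and lists were chosen with earlier results of these data known. Scripts were tested on simulated counts. Gene positions are from GENCODE on GRCh38, and 435 of 435 gene identifiers matched. Alternatives covered added CPM, scaling, filters, fold, clustering and naming. Python 3.11.15, numpy 2.4.6, scipy 1.17.1, pandas 2.3.3, igraph 0.11.9, leidenalg 0.10.2 and matplotlib 3.10.9 were used. The exact intervals show counting error only, not the spread between cells or between cultures.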

Additional observations from a re-analysis of the deposited data

Results flagged for a closer look

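RBFOX1, which encodes an RNA splicing factor, differed in opposite directions between classes. Its log2 ratio of positive over unsorted was 0.63 in alpha-like cells (235 and 148 CPM) and -0.83 in enterochromaffin-like cells (767 and 1377 CPM). With 1 library a side the difference between the classes was not tested. The 2 libraries held different clusters within each class, and with unsorted cells weighted to the positive cluster shares the ratios were 0.51 and -0.42, neither past 1.5-fold. In alpha-like cells 36.3% of positive and 21.1% of unsorted RBFOX1 UMIs came from 10 cells, and in enterochromaffin-like cells 30.8 and 10.9%.

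Barcodes outside the comparison held INS UMIs. The filter removed 46.9% of barcodes in the positive library, more than in the unsorted library. INS stood at 64631 CPM of non-mitochondrial UMIs in these removed positive barcodes, above the 28068 CPM of removed unsorted barcodes. Kept positive cells had 74420 CPM on the same base. The removed positive barcodes were shallow, with a median of 781 UMIs. Whether RNA from other cells contributed to them was not tested.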

How the results depend on the processing

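No difference in class shares changed direction under an alternative. Among ITGA1 and the highest and lowest genes of each comparison, no ratio past 1.5-fold changed direction. The signs of other named genes were not checked in this way. Sizes were less stable. Of 67 ratios of the checked genes, leaving out ITGA1 over all cells, 64 moved by more than counting error with 50 CPM added and 33 with 1 CPM. With cells weighted equally 43 of the 67 moved, and with median-of-ratios factors 14. With reweighting within classes 19 of 33 moved. With 50 CPM added, ITGA1 over all cells was 0.45, genes 1.5-fold higher and lower over all cells 4 and 24, and genes apart 1 in beta-like, 24 in enterochromaffin-like and 2 in alpha-like cells and 0 after reweighting. With 1 CPM added, ITGA1 was 0.70, 30 genes were higher over all cells and 19 apart in alpha-like cells. With each cell weighted equally, ITGA1 was 0.68, and the counts were 38 higher, 72 lower, 8 beta-like, 95 enterochromaffin-like and 3 reweighted. Without the filter on low genes, 82 were lower, with 12 apart in beta-like and 20 in alpha-like cells and 4 reweighted. At 2-fold, 0 were higher and 13 lower, with 0, 7 and 2 apart in the 3 classes and 0 reweighted.

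Beta-like, enterochromaffin-like and alpha-like differences were 8.57, -24.8 and -14.3 points with the wider cell filter and 17.9, -15.6 and -15.3 with the stricter one, and the difference in removed barcodes 16.8 and 22.4 points. At resolution 0.5 the first 2 were 30.8 and -16.4. Clustered without the negative library, the beta-like and alpha-like differences were 30.3 and -12.6. The beta-like difference was 28.97 with cells named 1 by 1 and 33.6 at fixed depth. Chosen after seeing the data were these: cluster 4 without a name (enterochromaffin-like -15.1 points), reweighting within classes (2, 17 and 4 genes apart), clustering without the 61 genes (beta-like 29.5 points, 2 genes apart), and leaving out cluster 8 or cluster 4, which moved no total by more than 1.5 times. Median-of-ratios factors moved no total by more than 1.5 times either, though single gene ratios moved as given above. Resolution 2 and removal of the highest Scrublet scores moved no difference in class shares outside its interval. Because Scrublet did not work here, its scores cannot show what doublets contributed. Of 126 list medians, the sign differed for 17 with cells weighted equally, axon guidance over all cells among them (-0.14), and for 5 with median-of-ratios factors.

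No paired analysis was possible because each group has 1 library. With 1 library a side, differences between cultures and selection cannot be told apart, and the 151 positive enterochromaffin-like cells limit what that class can show.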
